A study of Mus musculus with 2 samples.

Results

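S100 calcium-binding proteins were examined in RNA-seq data of 4T1 cells, a mouse mammary carcinoma line that metastasizes to the lung. The 10 genes S100a1, S100a3, S100a4, S100a6, S100a8, S100a9, S100a10, S100a11, S100a13 and S100a14 were taken by symbol, for their known links to metastasis and inflammation, from 21911 genes listed. The cultured cells received PBS or potassium oxalate for 48 h, and 1 library was sequenced per condition. The treatment label gives the oxalate dose as 20 µM and the protocol label as 20 mM. The text of the study gives 20 µM for the sequenced cells. Because single libraries are compared, replicate error is unknown, no difference could be tested and none has a replicate check. Levels are FPKM, the fragments of a gene divided by its transcript length and by the mapped fragments of the library, so they can be compared between genes per length.

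S100 proteins are small proteins with a pair of calcium-binding EF hands, most of which work as dimers. Calcium opens a surface with which they grip partners such as annexins and myosin. Some are released from cells and signal through receptors such as RAGE and TLR4. S100A8 and S100A9 together form calprotectin, the main calcium-binding protein of neutrophils and monocytes, whereas S100A4, S100A6, S100A10 and S100A11 are common in carcinoma cells.

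4T1 cells of both conditions carried large amounts of 4 members, moderate amounts of 2, little of another 2, and next to nothing of the myeloid pair. S100a11 was the most abundant at 2716.15 FPKM after PBS and 2972 FPKM after oxalate, followed by S100a6, S100a10 and S100a4. S100a9 was listed at 0 in both libraries. For S100a8 the PBS value was 0.29 FPKM and the oxalate value was listed at 0. Members of the tumour-cell class (all but this pair) thus summed to 4841.6 and 4929.2 FPKM, and the myeloid class to 0.290 and 0 FPKM. The order of the 9 members above 0 after PBS was S100a11, S100a6, S100a10, S100a4, S100a1, S100a14, S100a13, S100a3 and S100a8, and the first 8 kept this order after oxalate. S100a11, S100a6, S100a10 and S100a4 together made up 98.0% of the members' FPKM after PBS and 98.1% after oxalate. All members summed to 4841.9 FPKM after PBS and 4929.3 FPKM after oxalate, which is 0.854% and 0.882% of the FPKM of all genes. S100a11 alone made up 56.1% and 60.3% of the members' sum.

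**Figure D1:**
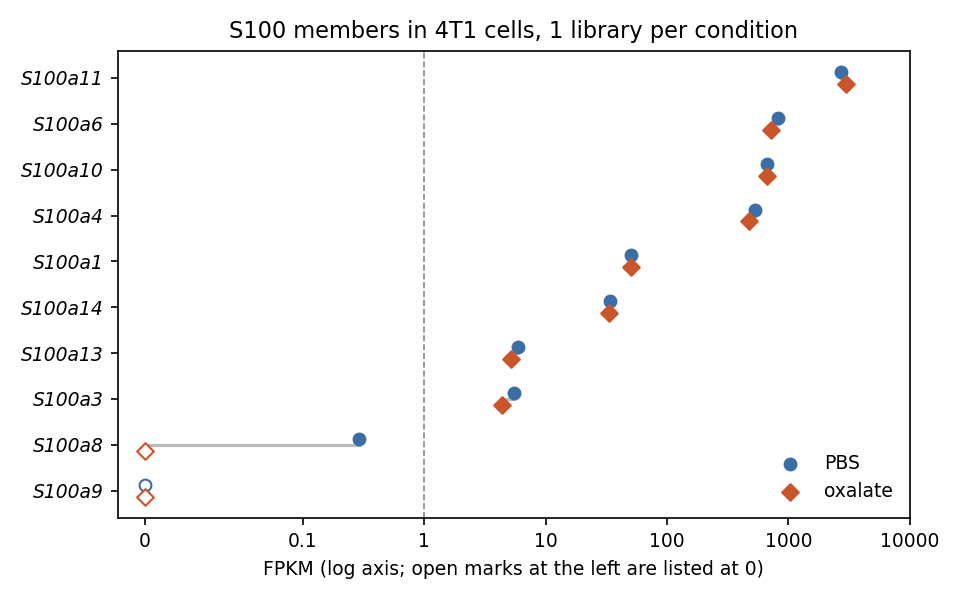
FPKM of each S100 member (log axis) in the PBS library (circles) and the oxalate library (diamonds), with open marks for values listed at 0 and a dashed line at 1 FPKM. S100a11 lies at 2716 and 2972 FPKM, S100a6, S100a10 and S100a4 between 476 and 822, and only S100a8 and S100a9 lie left of the dashed line.

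All 10 members lie on chromosome 3 within 3.05 Mb (coordinates of GENCODE M21 on GRCm38). A block of 8 members spans 184.7 kb (90511034 to 90695721), and S100a11 and S100a10 follow after a gap of 2824.8 kb. Stretches before the start sites are shown because members lying side by side differed widely in level. The sequences are those of RefSeq (GRCm38.p6), 100 bases before to 10 bases after an annotated start, 5′ to 3′ on the strand of the gene, with the word TATAAA, the core of a TATA box, in capitals. There were 11 such windows for 8 members, of which S100a3 had 4, and none for S100a10 and S100a14.
S100a4 (534.92 and 476.06 FPKM), chr3:90603670-90603779, plus strand: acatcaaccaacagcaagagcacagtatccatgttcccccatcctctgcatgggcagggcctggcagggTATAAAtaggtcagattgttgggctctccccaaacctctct
S100a8 (0.29 and 0 FPKM), chr3:90668971-90669080, plus strand: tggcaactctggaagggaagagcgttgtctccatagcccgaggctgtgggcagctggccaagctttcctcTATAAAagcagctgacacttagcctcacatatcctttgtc
S100a9 (0 and 0 FPKM), chr3:90695712-90695821, minus strand: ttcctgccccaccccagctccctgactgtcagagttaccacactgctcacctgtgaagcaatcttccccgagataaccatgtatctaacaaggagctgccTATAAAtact
S100a6 (822.19 and 720.1 FPKM), chr3:90612794-90612903, plus strand: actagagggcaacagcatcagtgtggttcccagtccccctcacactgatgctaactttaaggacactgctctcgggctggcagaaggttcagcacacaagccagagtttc
S100a11 (2716.15 and 2972 FPKM), chr3:93520396-93520505, plus strand: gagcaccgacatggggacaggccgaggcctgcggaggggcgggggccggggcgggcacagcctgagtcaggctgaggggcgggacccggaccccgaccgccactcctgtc

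TATAAA stood on the strand of the gene in 4 of the 11 windows, those of S100a4, S100a8 and S100a9 and 1 of the 4 of S100a3. On the other strand it stood in none. It began 31 bases before the start of S100a4, 30 before that of S100a8 and 52 before that of S100a3. In S100a9 it began at the first base of the transcript, not before the start. Of all 32851 windows of the same length, 4.00% held it on the strand of the gene and 2.37% on the other strand. The word thus occurred beside abundant S100a4 as well as beside S100a8 and S100a9, and was missing from the windows of S100a6 and S100a11. The S100a11 window was also the richest in G and C, at 77.3%, against 52.7% for S100a4 and S100a8 and 53.6% for S100a6.

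S100a1 and S100a13 stand head to head on opposite strands, with 104 bases between their RefSeq starts. The window of S100a13 covers most of this shared stretch.
S100a13 (5.96 and 5.18 FPKM), chr3:90514335-90514444, plus strand: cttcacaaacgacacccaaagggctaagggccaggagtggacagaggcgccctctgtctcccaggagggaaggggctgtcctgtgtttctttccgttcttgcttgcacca
The level of S100a1 was 8.47 times that of S100a13 after PBS and 9.67 times after oxalate.

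Among the abundant members, S100a4 (ENSMUSG00000001020, chromosome 3, 90603771 to 90606045), known as metastasin, binds non-muscle myosin and is linked to cell motility. S100a4 was at 534.92 FPKM after PBS and 476.06 FPKM after oxalate, rank 116 and rank 134 of the genes listed. Its log2 fold change was -0.17. Fold changes are given as log2((oxalate + 1)/(PBS + 1)), and the added 1 makes those of low genes smaller than they are. These levels correspond to about 12602 and 7245 reads, estimated from the worth of 1 read (libraries of about 56600000 reads for PBS and 36400000 for oxalate). For the log2 ratio of both FPKM values, the exact 95% interval (Clopper-Pearson) was -0.21 to -0.13, and like every interval given here it covers counting error only. S100a4 also marks fibroblasts, and in RNA of a whole culture fewer cells of a type and less RNA per cell cannot be told apart. Of 8 fibroblast markers only Col1a1 (143.48 and 144.61 FPKM) and Pdgfra (1.88 and 1.93 FPKM) had a mean of at least 1 FPKM, Lum and Thy1 were at 0, and the list summed to 147 and 148 FPKM, nearly all of it Col1a1. The markers above 0 but below that limit are named after the values were seen. Col1a2 was at 0.88 FPKM after PBS and 0.33 FPKM after oxalate (log2 ratio -1.42, interval -1.99 to -0.90). Col3a1 was at 0.75 and 0.6 FPKM, with an interval of -0.85 to 0.18 that included 0. Dcn (0.31 and 0.33 FPKM) and Pdgfrb (0.02 and 0.03 FPKM) were not lower after oxalate, nor were Col1a1 and Pdgfra. The part of such cells in the S100a4 values was not tested.

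S100a6 (ENSMUSG00000001025, chromosome 3, 90612882 to 90624181), or calcyclin, is a growth-linked member that binds annexins and the calcyclin-binding protein. S100a6 was at 822.19 FPKM after PBS and 720.1 FPKM after oxalate. The log2 fold change was -0.19, with a counting interval from -0.22 to -0.16. S100a4 and S100a6 were both lower in the oxalate library by more than counting error, and stayed lower under every scaling tried. When centred on genes of the members' length, their log2 fold changes shrank to -0.10 and -0.12.

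S100a10 (ENSMUSG00000041959, chromosome 3, 93555080 to 93564643) has lost calcium binding and is held in a complex with annexin A2 at the plasma membrane. S100a10 was at 672.13 FPKM after PBS and 668.22 FPKM after oxalate. The interval of its log2 ratio, -0.039 to 0.022, included 0.

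S100a11 (ENSMUSG00000027907, chromosome 3, 93520488 to 93526287) partners annexin A1 and takes part in membrane repair and growth control. S100a11 rested on the most reads, about 78415 after PBS and 55427 after oxalate, and ranked 16 and 14 of the genes listed. Its level of 2716.15 FPKM after PBS and 2972 FPKM after oxalate gave a log2 fold change of 0.13, with an interval from 0.11 to 0.15. S100a11 was the only member with a higher value in the oxalate library on the deposited FPKM scale, and was higher under every scaling tried.

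The members of moderate level were S100a1 and S100a14. S100a1 (ENSMUSG00000044080, chromosome 3, 90511034 to 90514392), best known from muscle, where it acts on calcium pumps and channels, was at 50.49 FPKM after PBS and 50.11 FPKM after oxalate. S100a14 (ENSMUSG00000042306, chromosome 3, 90526856 to 90528837), an epithelial member, was at 34.22 FPKM after PBS and 33.21 FPKM after oxalate. The counting intervals of both log2 ratios, -0.12 to 0.097 for S100a1 and -0.16 to 0.073 for S100a14, included 0.

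The low members were S100a13 and S100a3. S100a13 (ENSMUSG00000042312, chromosome 3, 90514435 to 90524581) helps to export FGF1 and interleukin 1α, which lack a signal peptide. S100a13 was at 5.96 FPKM after PBS and 5.18 FPKM after oxalate, about 241 and 135 reads. S100a3 (ENSMUSG00000001021, chromosome 3, 90560578 to 90602702), a cysteine-rich member known from the hair cuticle, was at 5.52 FPKM after PBS and 4.37 FPKM after oxalate, about 188 and 96 reads. S100a3 had the lowest log2 fold change of the members above 1 FPKM, -0.28, against -0.17 for S100a13. The interval of the log2 ratio was -0.52 to 0.10 for S100a13, which included 0. For S100a3 it depended on the length used. It was -0.71 to 0.023 with the reads given here, which come from the mean coding transcript, and -0.45 to -0.22 with the 1765 and 903 reads that the union of all annotated exons gives. That alternative was added with the values in view, and for no other member did it change whether the interval included 0.

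The myeloid members were at the limit of detection. The 0.29 FPKM of S100a8 (ENSMUSG00000056054, chromosome 3, 90668978 to 90670035) after PBS came to about 8 reads. Its oxalate value was listed at 0, and a count of 0 allows up to 3 reads, or 0.169 FPKM. S100a9 (ENSMUSG00000056071, chromosome 3, 90692632 to 90695721) was listed at 0 in both libraries, which allows up to 0.103 FPKM after PBS and 0.159 FPKM after oxalate. Of 20 myeloid markers, 13 were at 0 in both libraries, among them Ptprc (CD45), Itgam, Ly6g, Elane and Mpo. The other markers with a mean of at least 1 FPKM were Cd14, Itgb2, Cd68, Csf1r and Ltf, and the list summed to 92.9 and 98.8 FPKM. Ltf, which encodes the iron-binding lactoferrin of neutrophil granules and of milk, was singled out after its values were seen. It was at 2.15 FPKM after PBS and 5.13 FPKM after oxalate, a log2 fold change of 0.96. Without the added 1 the log2 ratio was 1.25, with a counting interval of 0.88 to 1.64. Ltf was the only 1 of these 5 markers past 1.5-fold, against 1.99% of all genes with a mean of at least 1 FPKM. The part of myeloid cells in the S100a8 value was not tested. In contrast, all 9 epithelial carcinoma markers were above 70 FPKM in both libraries, for example Epcam at 125.71 and 125.33 FPKM and Krt8 at 401.94 and 429.31 FPKM.

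The study followed S100A8 and S100A9 by qPCR in mouse lung tissue, not in cultured 4T1 cells. It reported both as higher in lungs of mice that inhaled oxalate. In lungs of 4T1-bearing mice it reported both as lower with CCPST, an inhibitor of the oxalate-making enzyme HAO1. The levels of cultured cells given here were not compared with those lung values. The primers used there, shown here, match the transcripts that were near or at 0 in 4T1 cells. Both primers of S100a8 matched its 1 coding transcript (bases 220 to 241 and 363 to 384 of 486), and both of S100a9 matched its 2 coding transcripts (bases 122 to 144 and 228 to 250 of the one with 512 bases).
S100a8 forward: aaatcaccatgccctctacaag
S100a8 reverse: cccacttttatcaccatcgcaa
S100a9 forward: atactctaggaaggaaggacacc
S100a9 reverse: tccatgatgtcatttatgagggc

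**Figure D2:**
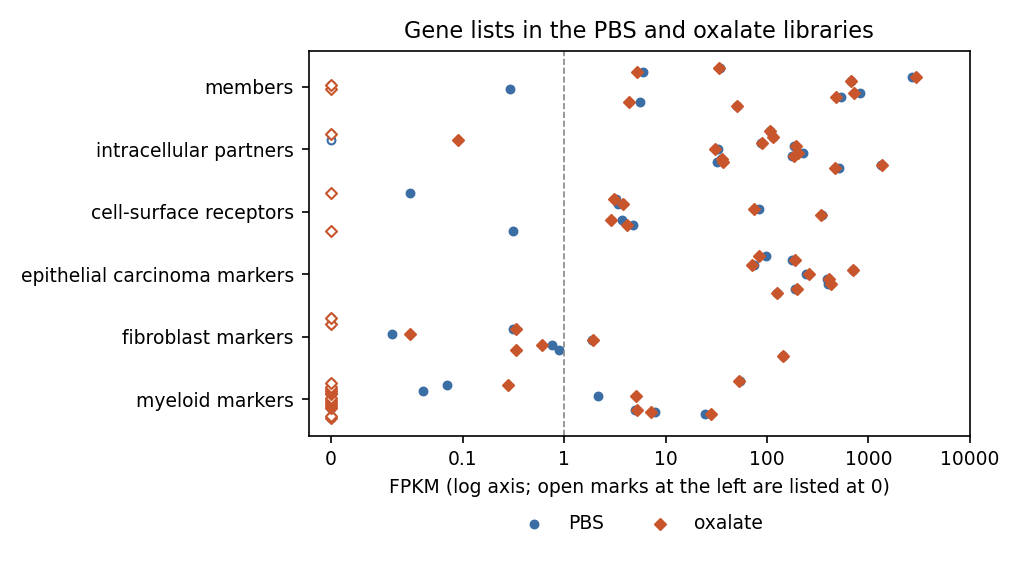
FPKM (log axis) of every gene of 6 lists (members, intracellular partners, cell-surface receptors, and epithelial, fibroblast and myeloid markers) in the PBS library (circles) and the oxalate library (diamonds), with open marks for values listed at 0 and a dashed line at 1 FPKM. The 9 epithelial markers lie above 70 FPKM, whereas 13 of 20 myeloid markers lie at 0 in both libraries.

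The comparison of oxalate with PBS covered the 10267 genes with a mean of at least 1 FPKM, among them 8 of the 10 members. None of these 8 members differed 2-fold, against 0.653% of all genes compared (0.292% higher and 0.360% lower), and none 1.5-fold, against 1.99% (0.935% higher and 1.05% lower). At 1.2-fold, a threshold chosen after the values were seen, 1 member (S100a3, lower after oxalate) stood out of 8, against 9.94% of all genes (4.75% higher and 5.19% lower). The log2 fold changes ran from -0.28 for S100a3 to 0.13 for S100a11, with a median of -0.10, against a median of 0.0031 over all genes compared. Without S100a3, which also leaves when the limit is a mean of 5 FPKM, the members' median was -0.042, and it was -0.038 when centred on genes of the members' length. In all, 7 of the 8 members were lower after oxalate, against 49.0% of all genes, although S100a1 and S100a10 were higher when both libraries were scaled to the same sum.

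**Figure D3:**
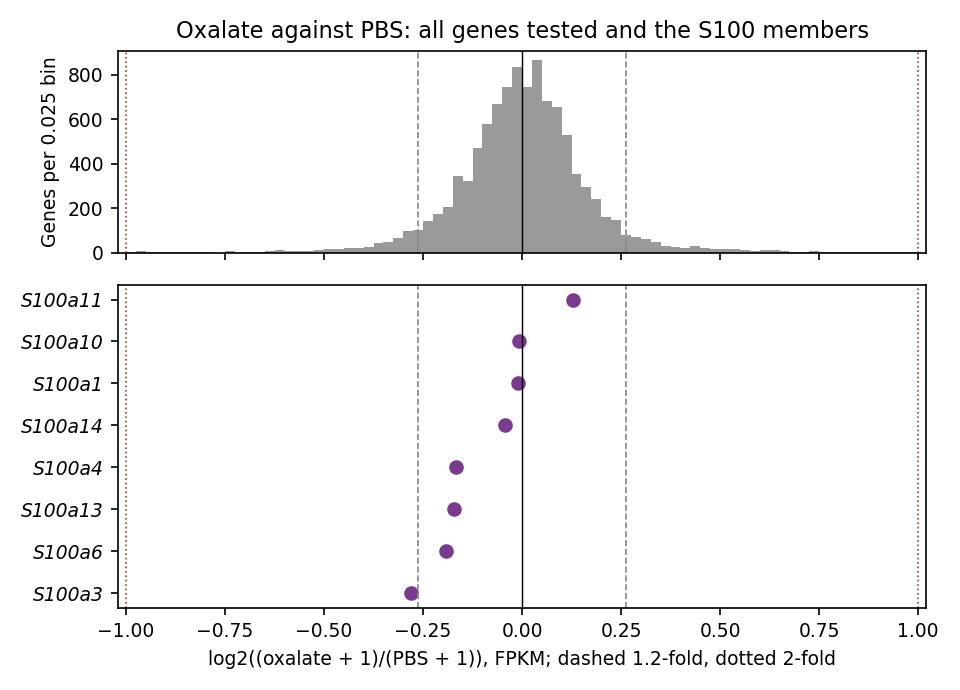
Number of genes by log2((oxalate + 1)/(PBS + 1)) for all 10267 genes compared, in bins of 0.025 between -1 and 1 (top), and the value of each of the 8 S100 members with a mean of at least 1 FPKM (bottom); lines mark 1.2-fold and 2-fold. The members lie between -0.28 and 0.13, with S100a11 alone to the right of 0.

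Transcript length moved with this direction. The coding transcripts of the 8 members averaged 417.0 to 819.0 bases per gene. Among the other 574 genes compared in this length range, 67.1% were lower after oxalate, with a median log2 fold change of -0.067. Over all genes compared, the median was -0.12 up to 500 bases, -0.043 from there to 1000 bases, -0.0062 from there to 2000 bases and 0.035 above 4000 bases. S100a3 lay among the lowest 12.7% of the 574 genes, S100a6 among the lowest 23.2% and S100a11 among the highest 11.8%. When fold changes were centred on the median of these genes, which was added with the values in view, 4 of the 8 members were lower and 4 higher. The part of transcript length in the members' values was not tested.

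**Figure D4:**
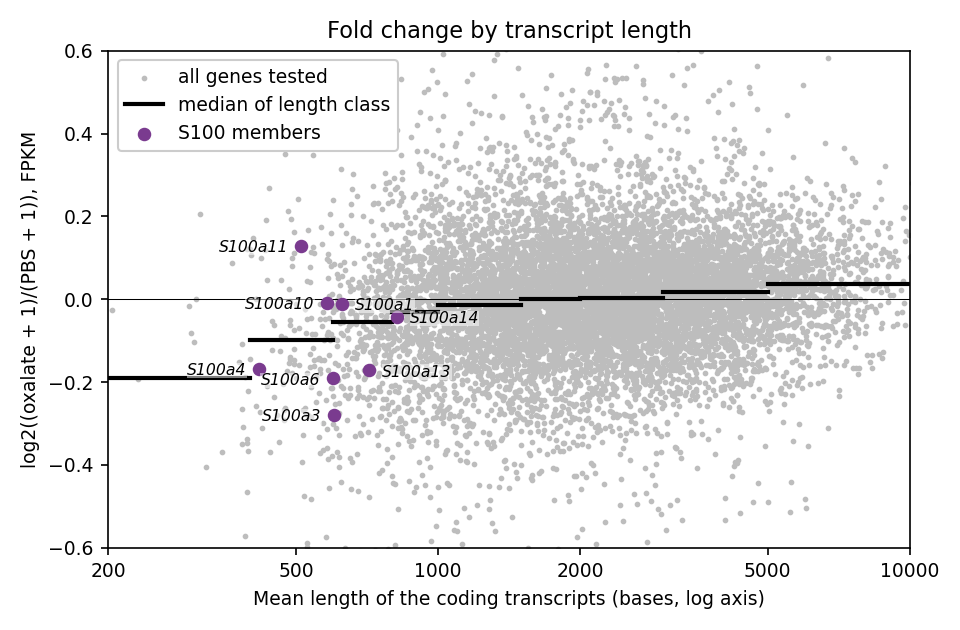
log2((oxalate + 1)/(PBS + 1)) against the mean length of the coding transcripts (log axis) for the genes compared (grey; values beyond 0.6 not shown) with the median of each length class (black lines) and the 8 S100 members (purple). The medians run from below 0 for short transcripts to above 0 for long ones, and S100a11 lies above the short-transcript medians.

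The values of S100a11, S100a4 and S100a3 rest in part on sequence shared with other genes and are uncertain to that extent. Of the 50-base words in the coding transcripts of S100a11, 41.1% also occur in transcripts of 3 other annotated genes, the largest share in the processed pseudogene Gm12854. For S100a4 47.4% and for S100a3 11.5% occur in Gm42674, an annotated coding gene that overlaps both on the same strand. None of these other genes is among the genes listed, so they have no FPKM here. How reads from shared sequence were counted is not given in the sources used here. S100a3 also overlaps S100a2, which was at 0.17 FPKM after PBS and 0.09 FPKM after oxalate. The coding transcripts of the other 7 members shared no such word with another gene.

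The gap between the block of 8 members and S100a11 was nearly silent. Inside that block the other listed genes were S100a16 and S100a7a, both expressed, and S100a2 and S100a5, both near 0. Between the outermost members lie 65 other listed genes, including the genes of the cornified skin envelope, of which 50 were at 0 in both libraries and 4 had a mean of at least 1 FPKM. None of those 4 differed 1.5-fold, against 1.99% of all genes compared. S100a16 was at 35.95 FPKM after PBS and 31.95 FPKM after oxalate, and S100a7a (related to human psoriasin) was at 13.46 and 12.27 FPKM. Their log2 fold changes were -0.17 and -0.12. S100a5, which lies at 90608523 to 90611780 between the abundant S100a4 and S100a6, was at 0.04 and 0.26 FPKM, about 1 and 4 reads. Pglyrp4, next to S100a9, and Tchhl1, next to S100a11, were at 0 in both libraries. Of the 7 other S100 genes looked for, 6 were found, of which only S100a16 and S100a7a had a mean of at least 1 FPKM, S100a5 and S100b were below it, and S100g and S100z were at 0 in both libraries.

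**Figure D5:**
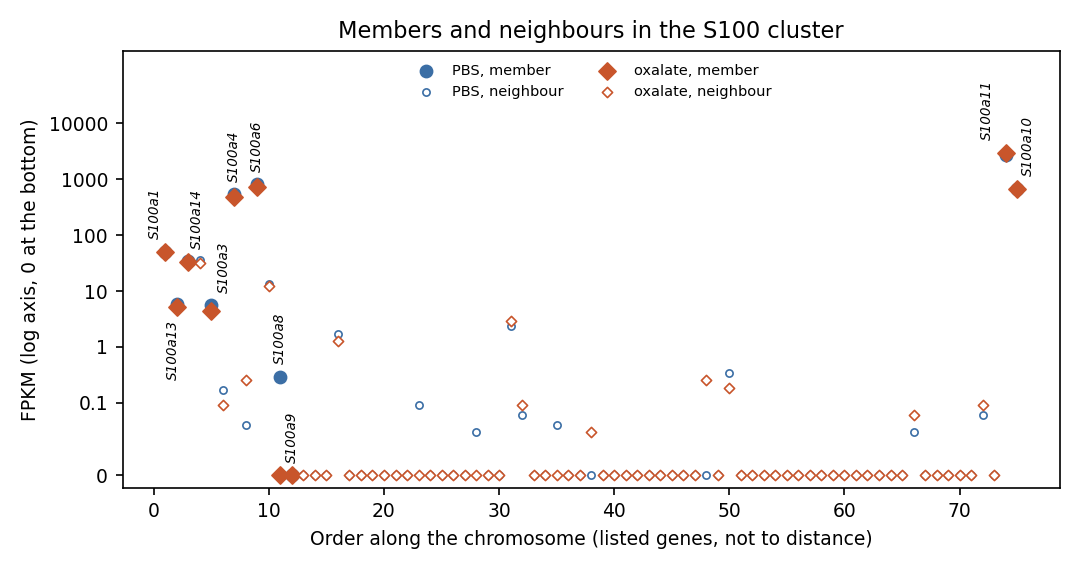
FPKM (log axis, 0 at the bottom) of the 75 listed genes from S100a1 to S100a10 in chromosome order, with members filled and labelled and neighbours open, for PBS (circles) and oxalate (diamonds). S100a4, S100a6, S100a11 and S100a10 stand far above a row of genes at 0.

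Intracellular partners of the members were largely expressed, with 11 of 13 at a mean of at least 1 FPKM, and none of these differed 1.5-fold, against 1.99% of all genes compared. On the deposited scale, 7 were higher in the oxalate library and 4 lower, against 49.0% of all genes lower. The median log2 fold change was 0.042, and 0.11 when centred on genes of the members' length. Those genes had 417.0 to 819.0 bases, whereas the partners compared ran from 898.2 bases (Anxa2) to 7392 bases (Sugt1). The centring therefore does not match the partners for length. Anxa2, the partner of S100a10, was at 1319.12 FPKM after PBS and 1358.1 FPKM after oxalate, and Ahnak, a large scaffold bound by that complex, was at 174.62 and 186.6 FPKM. Anxa1, the partner of S100a11, was at 511.43 and 472.42 FPKM. Myh9, the myosin heavy chain bound by S100a4, was at 183.67 and 193.25 FPKM, and Myh10 was at 87.11 and 90.13 FPKM. Cacybp, the partner of S100a6, was at 223.87 and 202.06 FPKM, with a log2 fold change of -0.15. Anxa6 had the highest log2 fold change of the list, 0.19, and Anxa11, Sugt1 and Atp2a2 lay between -0.075 and 0.042. Il1a, a cargo of S100a13, was at 115.39 and 113.7 FPKM. Fgf1, the other cargo, was at 0 after PBS and 0.09 FPKM after oxalate, and Syt1 was at 0 in both libraries.

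Of 8 cell-surface receptors, 6 had a mean of at least 1 FPKM, and 5 of these were lower after oxalate on the deposited scale, against 49.0% of all genes, but 3 of 6 when centred on genes of the members' length. The median log2 fold change was -0.11, and -0.042 with that centring. The centring used genes of 417.0 to 819.0 bases, a range that held only Ly96 (530.5 bases) of these receptors. The others ran from 1237 bases (Bsg) to 2972 bases (Tlr4), so it does not match them for length. None of the receptors with a mean of at least 1 FPKM differed 1.5-fold, against 1.99% of all genes compared. Bsg (basigin), a receptor for S100A9, was highest at 348.16 FPKM after PBS and 338.63 FPKM after oxalate, followed by its relative Nptn at 82.82 and 74.26 FPKM. Tlr4 was at 4.75 and 4.11 FPKM, and its co-receptor Ly96 was at 3.72 and 2.89 FPKM, a log2 fold change of -0.28. The adhesion receptors Mcam (3.36 and 3.83 FPKM) and Alcam (3.25 and 3.07 FPKM) were at similar levels. Ager, which encodes RAGE, was below the limit of 1 FPKM and is named after its values were seen. The PBS value was 0.31 FPKM, about 23 reads, and the oxalate value was listed at 0, which allows up to 0.0622 FPKM. The counting interval of the Ager log2 ratio had no lower bound and an upper end of -1.89.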

How the data were processed

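Polyadenylated RNA of 4T1 cells was copied by random priming and read on an Illumina sequencer, with 1 library for PBS and 1 for oxalate. For 21911 Ensembl identifiers the authors deposited FPKM, which carry 2 decimals. The submitters' processing notes list Bowtie2 2.2.8 and TopHat2 2.1.1 without a role, and the quantification tool, genome build and annotation are not given in the sources used here. Symbols came from GENCODE M21 (GRCm38) for 21848 identifiers, and that annotation need not be the authors' own.

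The members and lists were chosen with earlier results of these data known, and S100a7l2 was not matched. All members were named, as were the other S100 genes, partners and receptors with a mean of at least 1 FPKM, and cluster neighbours if past 1.5-fold or adjacent to a member. Marker lists are given by counts, sums and examples. Fold changes used a pseudocount of 1 and a mean of at least 1 FPKM. Reads were estimated as FPKM times the mean coding transcript length, divided by the worth of 1 read. That worth was the step on which low values of genes with 1 transcript fell (0.0177 FPKM kb for PBS, 107 genes; 0.0274 for oxalate, 93 genes; 99.0% and 100% of values up to 10 reads within 0.2 of a whole number). Intervals are exact (Clopper-Pearson) at 95% and cover counting error only. Primers were placed on coding transcripts by exact match. The planned comparison of proteins was not made. The step estimate was tested on simulated data beforehand. The work used scipy 1.17.1, pandas 2.3.3 and numpy 2.4.6 under Python 3.11.15, with figures by matplotlib 3.10.9.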

Additional observations from a re-analysis of the deposited data

How the results depend on the processing

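No paired analysis was possible because only 1 PBS and 1 oxalate library were made, so that no replicate could be left out either. The alternatives were pseudocounts of 0.1 and 0.01, libraries scaled to the same sum, centring on the median of all genes compared, no filter or a mean of at least 5 FPKM, and 1.5-fold. Chosen after the values were seen were centring on genes of the members' length and leaving out S100a3. A median counted as moved when it shifted by more than the median half-width of its genes' counting intervals, and a member by more than its own. The counts of genes past the threshold changed in none of 41 comparisons with an alternative. All of these counts were 0. With the main settings no compared gene of these lists lay beyond a log2 fold change of -0.28 or 0.19. The alternatives thus had little room to change the counts. Of 44 list medians 1 moved, that of the intracellular partners, to 0.11 when centred on genes of the members' length. The partners compared have longer transcripts than those genes, so this shift is no correction for length. Of 40 values of the 8 members with a bounded interval 5 moved, those of S100a11 when libraries were scaled to the same sum (0.15) and of S100a4, S100a6, S100a10 and S100a11 when centred on genes of the members' length. That centring took the same median, -0.067, from every gene, and the members that moved had the narrowest counting intervals. S100a8 and S100a9 have no bounded interval, so this measure could not be applied to them. The value of S100a8 depends on the pseudocount (-0.37 with 1, -1.96 with 0.1 and -4.91 with 0.01), and no fold is read from it. Reads from exon-union lengths moved for 12 of 20 values, for S100a3 from 188 to 1765 with PBS. The interval of S100a3 includes 0 with its coding length and not with its exon-union length. Depth limits S100a8, S100a9, S100a13 and, by its coding length, S100a3.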
